A study of Danio rerio with 10 samples.

Results

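The comparison described here is that of *rpgrip1l* mutant with wild type (WT) zebrafish larvae at 5 days post fertilization (dpf). It uses 4 of the 10 RNA libraries of the study, 2 from *rpgrip1l*-/- larvae and 2 from WT larvae, chosen by their genotype and age. The other 6 libraries are from embryos at 2 dpf, 2 of WT and 4 of *rpgrip1l*-/- embryos with or without a curled-down tail (CDT). Each library was made from poly(A) RNA of a pool of 30 to 35 whole animals. The mutants are labelled rpgrip1l KO, carry 1 out-of-frame CRISPR allele made on the AB strain, and came from crosses between homozygous fish, while WT came from AB crosses. Parents and clutch therefore differ with the genotype and cannot be told apart from it. The tail form of the larvae in the 5 dpf mutant pools and the hour at which any pool was collected are not given in the sources used here.

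*rpgrip1l* encodes a scaffold protein of the ciliary transition zone, the region at the base of the cilium that controls which proteins enter and leave it. In humans, mutations of this gene cause ciliopathies such as Joubert and Meckel syndromes, which affect the brain, retina, kidney, liver and skeleton. At 5 dpf a zebrafish larva has a working heart, liver, pancreas, gut and kidney, swims, and takes up calcium and other ions through ionocytes of its skin.

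The mutant libraries held 13979426 and 14022070 counts on genes and the WT libraries 17536165 and 17294975. Of 41 organ markers listed for liver, pancreas, gut, muscle, heart, lens, skin, cartilage, blood, vessels, nervous system, retina and other organs, 37 were matched to a gene. All but 1 of the 37 were above 1 CPM, a gene's count relative to the scaled total of its library, in every library, the exception being the neutrophil gene *lyz*. The first principal component held 56.0% of the variance and separated the genotypes, with the mutant libraries at −14.2 and −26.0 and the WT libraries at 21.8 and 18.4. The mutant pools differed from each other more than the WT pools did on this axis. In *rpgrip1l*-/- replicate 2 the insulin gene *ins* was at 3.84 CPM, against 17.7 CPM in replicate 1 and 15.9 and 17.9 CPM in WT, and the liver genes *fabp10a* and *tfa* were also lowest in that pool. Fewer cells of a type and less RNA per cell cannot be told apart in whole larvae. With 2 pools per genotype, p-values measure only the spread between these pools, which may be technical in part.

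The targeted gene had 11 and 24 counts in the mutant libraries and 21 and 22 in WT (ENSDARG00000051754, log2 fold change −0.09, SE 0.45, edgeR adjusted p = 0.951). Its log2 fold change was 0.36 without *rpgrip1l*-/- replicate 1 and −0.74 without *rpgrip1l*-/- replicate 2, so this transcript does not check the labels. Of the 40 tested genes nearest to *rpgrip1l* on its chromosome, 0 were called different between the genotypes by edgeR or DESeq2, and 3 had an unadjusted p under 0.05 in edgeR. On the whole chromosome 15 of 431 genes with a known position were called, a share of 3.48%, between the 1.33% and 5.06% of the other chromosomes with the lowest and highest shares.

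Of 20071 genes tested, 257 were higher and 514 lower in *rpgrip1l*-/- larvae by edgeR's quasi-likelihood test with a Benjamini-Hochberg adjusted p under 0.05. These are 3.84% of the genes, 1.28% for higher and 2.56% for lower, and the median log2 fold change over all genes was −0.0031. The counts of each list and family below are to be read against these shares. A list whose share is near them does not stand out. Without *rpgrip1l*-/- replicate 2 the counts were 180 higher and 333 lower, and without WT replicate 1 they were 149 and 329. Of the 257 and 514 genes, 153 and 292 were called without *rpgrip1l*-/- replicate 2, and 125 and 280 without WT replicate 1. In all 771 called genes both mutant pools lay on the same side of both WT pools. Lack of overlap in a called gene therefore adds nothing to its call. Symbols are given as in the table that names the identifiers, which writes many zebrafish genes in capitals, and log2 fold changes are of mutant over WT.

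Of the 12 genes that rose most, 7 are in the immediate early or inflammatory lists. *nppcl2*, a natriuretic peptide C-like gene, was at 6.58 and 7.28 CPM in *rpgrip1l*-/- and 1.16 and 1.34 CPM in WT (log2 fold change 2.46, SE 0.27, edgeR adjusted p = 0.00012). *hpxa*, which encodes the heme-binding plasma protein hemopexin, was at 46.7 and 18.7 CPM in mutants and 4.15 and 8.68 CPM in WT, a 5.06-fold difference (log2 fold change 2.34, SE 0.34, edgeR adjusted p = 0.00117). The mutant pools themselves differed in *hpxa*, and both were above both WT pools, as in every gene called higher. Its log2 fold change was 1.54 without *rpgrip1l*-/- replicate 1 and 2.98 without WT replicate 2, and DESeq2 did not call it. *CH25H*, the gene of an enzyme that makes 25-hydroxycholesterol, was at 3.26 and 5.90 against 0.427 and 1.63 CPM (log2 fold change 2.13, edgeR adjusted p = 0.013), a call lost without WT replicate 1 at a value of 1.48. *ACOXL* and *ncoa7a* were below 3 CPM in all libraries, and their calls were lost without WT replicate 1 at log2 fold changes of 1.64 and 1.94, and without *rpgrip1l*-/- replicate 2 at 1.88 and 1.28. The call for *ncoa7a* was also lost without WT replicate 2, at 1.73. The 7 genes of those lists were *FOSL1*, *KLF4*, *FOSB*, *JUND*, *egr4*, *tnfb* and *irg1l*.

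Those that fell most were led by 3 genes almost without reads in the mutants. *ca15c*, a carbonic anhydrase gene, had 0 and 1 counts in the mutant libraries and 48 and 64 in WT, a ratio of 90.04 with an exact 95% counting interval of 15.8 to 3588. *LIPC*, the gene of hepatic lipase, had 2 and 1 counts against 30 and 52, a ratio of 21.97 (95% counting interval 7.26 to 109). *tnfrsf14*, which encodes a tumor necrosis factor receptor, had 4 and 2 counts against 46 and 33, a ratio of 10.6 (95% counting interval 4.65 to 29.7). Their edgeR adjusted p-values were 0.00012, 0.000841 and 0.00194, and the intervals cover counting error only.

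More abundant genes also fell steeply. *AJUBA*, the gene of a LIM domain protein of cell junctions, was at 1.25 and 2.13 CPM in *rpgrip1l*-/- and 13.1 and 18.2 CPM in WT, 9.25-fold lower (log2 fold change −3.21, SE 0.25, edgeR adjusted p = 1.23e-05). *DRD3*, a dopamine receptor gene, was at 0.970 and 0.892 against 5.25 and 5.47 CPM (log2 fold change −2.52, SE 0.30, edgeR adjusted p = 0.000252). *igfbp1b*, which encodes a binding protein for insulin-like growth factors, was at 9.98 and 4.94 against 38.6 and 41.2 CPM (log2 fold change −2.42, SE 0.20, edgeR adjusted p = 1.23e-05), with −3.01 without *rpgrip1l*-/- replicate 1. In each of these 3 genes the replicates lay close together compared with the gap between the genotypes. *BCDIN3D*, an RNA methyltransferase gene, was at 0.624 and 0.412 against 3.11 and 1.75 CPM (log2 fold change −2.21), and its call was lost without WT replicate 1 at −1.74. The calls of *pcdh1g30*, a clustered protocadherin gene, and *acot17*, an acyl-CoA thioesterase gene, were lost without *rpgrip1l*-/- replicate 1, at −1.92 and −1.69, and without WT replicate 2, at −2.12 and −2.34. Without WT replicate 1 the call of *acot17* was lost as well, at −2.08. The remaining 3 of these 12 genes, *TRPV6*, *CYP24A1* and *PER2*, are described with calcium handling and the clock.

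**Figure D1:**
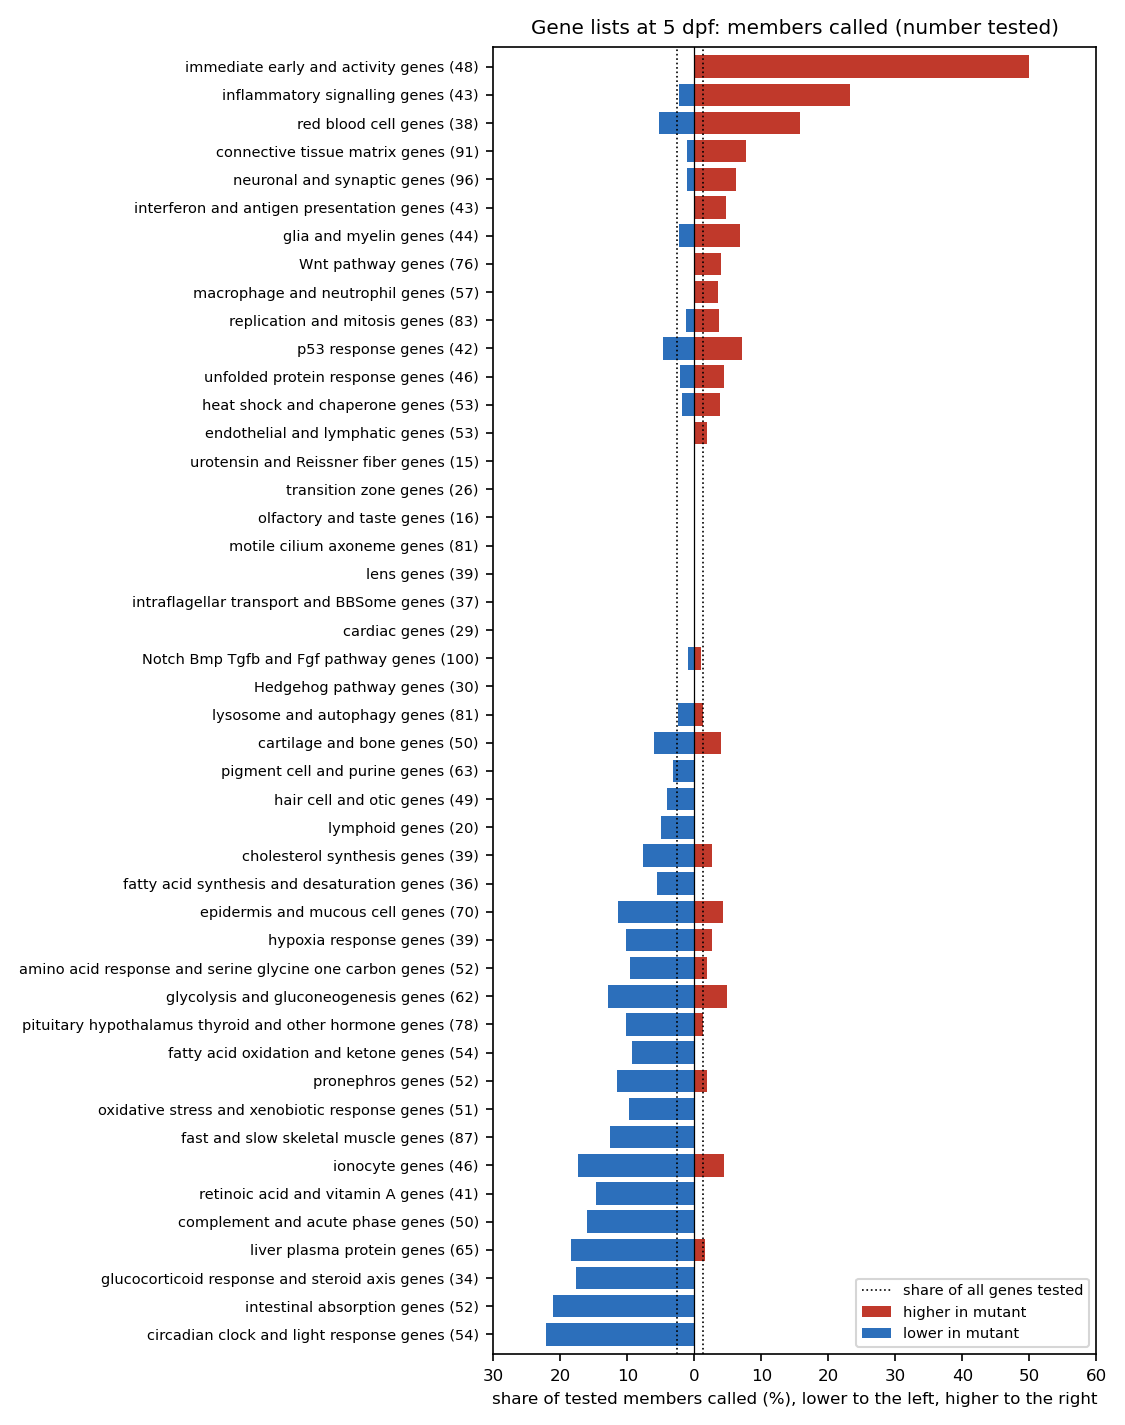
Share of tested members called higher (right, red) or lower (left, blue) in *rpgrip1l*-/- larvae at 5 dpf, in percent, for the gene lists other than digestive enzymes and retina phototransduction, with the number tested in parentheses and dotted lines at the shares over all 20071 genes, 1.28% and 2.56%. Immediate early genes reach furthest to the right and clock and intestinal genes furthest to the left, and the cilium lists have no bar.

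Immediate early genes, whose transcripts rise within minutes of a stimulus and which encode transcription factors and feedback regulators, formed the list with the most genes raised. Of 48 tested, 24 rose and 0 fell, against 1.28% higher among all genes, and the median log2 fold change was 0.53. When 1 library was left out, between 19 and 28 of them were called higher. The summed level of the list was 2801 and 3205 CPM in *rpgrip1l*-/- and 1889 and 2129 CPM in WT, so the genotypes did not overlap.

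Several encode AP-1 transcription factors, dimers of Fos and Jun proteins. *JUND* (ENSDARG00000067850) was at 24.4 and 31.7 CPM in mutants and 7.32 and 6.70 CPM in WT, 4.001-fold higher (log2 fold change 2.00, SE 0.16, edgeR adjusted p = 1.23e-05). *FOSL1* (ENSDARG00000015355) was at 26.5 and 54.2 against 7.63 and 8.33 CPM (log2 fold change 2.34, SE 0.25, edgeR adjusted p = 0.000113), with 1.73 without *rpgrip1l*-/- replicate 2 and 2.76 without *rpgrip1l*-/- replicate 1. One of the copies of *JUNB* (ENSDARG00000074378) was at 98.8 and 125 against 42.3 and 54.6 CPM (log2 fold change 1.21, SE 0.14, edgeR adjusted p = 0.000146). In *FOSL1* and *JUNB* replicate 2 was the higher of the mutant pools. In all 3 genes the lower mutant pool exceeded both WT pools, as in every gene called higher. *FOSB* was at 3.26 and 3.50 against 0.610 and 1.05 CPM (log2 fold change 2.01, SE 0.36, edgeR adjusted p = 0.00552), and *FOS*, named after its values were seen, was at a log2 fold change of 0.99 (edgeR adjusted p = 0.00466).

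Zinc finger and nuclear receptor genes of this class rose as well. *KLF4* was at 7.41 and 4.53 CPM in *rpgrip1l*-/- and 1.403 and 1.11 CPM in WT (log2 fold change 2.25, SE 0.32, edgeR adjusted p = 0.000918). *klf2a*, a flow-responsive factor of endothelium, was at 99.2 and 116 against 58.3 and 57.2 CPM (log2 fold change 0.89, SE 0.11, edgeR adjusted p = 0.000243). *egr4*, of the early growth response family, was at 11.2 and 19.2 against 4.21 and 4.31 CPM (log2 fold change 1.83, SE 0.23, edgeR adjusted p = 0.000375). None of these genes showed overlap between the genotypes, which holds for every called gene. *NR4A1*, an orphan nuclear receptor gene, was at 78.6 and 105 against 41.4 and 45.7 CPM (log2 fold change 1.08, SE 0.13, edgeR adjusted p = 0.000252). *NPAS4*, a neuronal activity-dependent factor that was named after its values were seen, was at a log2 fold change of 1.23 (SE 0.21, edgeR adjusted p = 0.00324).

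Stress-linked members rose too. *ATF3*, a factor induced by many cell stresses, was at 22.9 and 34.2 CPM in *rpgrip1l*-/- and 11.6 and 14.8 CPM in WT (log2 fold change 1.11, SE 0.17, edgeR adjusted p = 0.00194). The copies of *GADD45B*, a growth arrest gene, had log2 fold changes of 1.00 and 0.72 (edgeR adjusted p = 0.00132 and 0.00321), and *BTG2*, an antiproliferative gene, one of 0.72 (edgeR adjusted p = 0.00273). These last genes are also the 3 higher members of the p53 response list, in which 42 genes were tested and 2 were lower, among them *TP53INP1* at −0.52, a call lost without WT replicate 2 at −0.43.

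**Figure D2:**
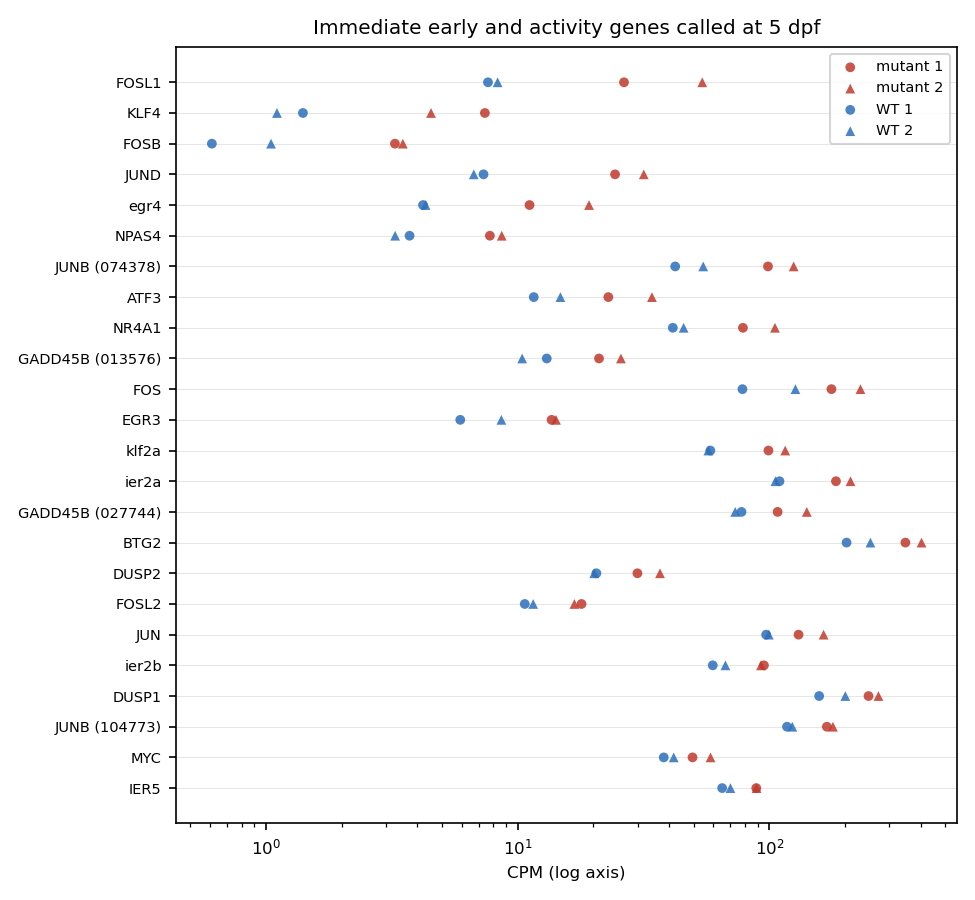
CPM of the 24 immediate early and activity genes called at 5 dpf, on a log axis, in *rpgrip1l*-/- replicates 1 and 2 (red circle and triangle) and WT replicates 1 and 2 (blue circle and triangle). In every row both red points lie to the right of both blue points, as in every gene called higher. Digits in parentheses are the last of the identifier where several genes share a symbol.

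Some inflammatory signalling genes also rose. Of 43 tested, 10 rose and 1 fell, with a median log2 fold change of 0.17, and 7 of the 10 are not in the immediate early list. The share higher was 23.3%, against 1.28% over all genes. *irg1l*, an immunoresponsive gene, had 203 and 220 counts in *rpgrip1l*-/- and 51 and 69 in WT (log2 fold change 2.03, SE 0.18, edgeR adjusted p = 2.43e-05). Both copies of *PTGS2*, which encode cyclooxygenase 2 for prostaglandin synthesis, rose, from 30.7 and 27.0 to 55.7 and 64.0 CPM (ENSDARG00000004539) and from 10.01 and 13.6 to 30.3 and 24.3 CPM (ENSDARG00000010276, edgeR adjusted p = 0.00012 and 0.000486). *MMP9*, a matrix metalloproteinase gene, was at 28.5 and 32.5 against 18.4 and 14.6 CPM (log2 fold change 0.89, SE 0.13, edgeR adjusted p = 0.00148). The genotypes were apart in all 4 of these genes, as in every called gene.

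Cytokine genes were expressed at low levels. *tnfb*, a tumor necrosis factor gene, was at 2.42 and 5.15 CPM in *rpgrip1l*-/- and 1.098 and 0.699 CPM in WT (log2 fold change 2.07, SE 0.42, edgeR adjusted p = 0.0106), a call lost without *rpgrip1l*-/- replicate 2 at 1.43. *cxcl8a*, a neutrophil attractant, was at 4.23 and 4.26 against 2.32 and 1.11 CPM (edgeR adjusted p = 0.0377), a call lost without WT replicate 2 at 0.87. *nfkbiaa*, an inhibitor and target of NF-kappaB that was named after its values were seen, had a log2 fold change of 0.75 (SE 0.12, edgeR adjusted p = 0.00222). The 1 lower gene of the list was *hamp*, which encodes the iron hormone hepcidin made by the liver, at 3.81 and 2.06 against 6.59 and 10.25 CPM (log2 fold change −1.52, SE 0.28, edgeR adjusted p = 0.00664).

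Few markers of the immune cells themselves were called. Among 57 macrophage and neutrophil genes 2 rose and 0 fell, with a median of 0.05 and summed levels of 1781 and 1554 CPM in *rpgrip1l*-/- and 1587 and 1589 CPM in WT, which overlap. The 2 were *CEBPB*, a transcription factor gene of myeloid cells and of the acute phase, at 346 and 411 against 216 and 193 CPM (log2 fold change 0.89, SE 0.11, edgeR adjusted p = 0.000375), and *MMP9* again. Of 43 interferon and antigen presentation genes 2 rose and 0 fell. In this group *SOCS1* and *b2ml* had log2 fold changes of 0.82 and 0.43, and both calls were lost without *rpgrip1l*-/- replicate 2, at 0.63 and 0.41. Without WT replicate 1 *SOCS1* was not called, at 0.68, and without WT replicate 2 *b2ml* was not, at 0.32.

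Clock and light response genes were called in the other direction. The zebrafish clock runs in nearly every cell and is set directly by light, through genes such as *per2* and the cryptochromes. Of 54 tested, 0 rose and 12 fell, against 2.56% lower among all genes, with a median log2 fold change of −0.24, and 10 to 12 fell whichever library was left out. *PER2* (ENSDARG00000034503) was at 8.73 and 9.95 CPM in *rpgrip1l*-/- and 25.9 and 45.3 CPM in WT (log2 fold change −1.93, SE 0.21, edgeR adjusted p = 0.00012). *lonrf1*, a ring finger gene of the list, was at 19.3 and 20.9 against 47.1 and 57.7 CPM (log2 fold change −1.38, SE 0.12, edgeR adjusted p = 2.07e-05). *tefa*, a PAR bZIP factor of the clock output, was at 69.5 and 69.0 against 112 and 137 CPM (log2 fold change −0.84, SE 0.11, edgeR adjusted p = 0.000569). Replicates of the mutants agreed closely in these 3 genes, while WT replicate 2 was the higher of the WT pools. At 2 dpf these 3 genes were instead higher than in WT in both mutant groups, at log2 fold changes of 0.39 to 1.52. Calls were common at that age, with 3795 and 3620 of 18724 genes higher in mutants with and without CDT.

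Cryptochromes, repressors of the clock, fell as well. *CRY2* was at 30.4 and 33.98 CPM in *rpgrip1l*-/- and 54.1 and 50.1 CPM in WT (log2 fold change −0.69, SE 0.11, edgeR adjusted p = 0.00177), and a copy of *CRY1* (ENSDARG00000011583) at 29.1 and 23.3 against 41.0 and 49.7 CPM (log2 fold change −0.79, SE 0.13, edgeR adjusted p = 0.00259). *nfil3-6*, a bZIP repressor gene named after its values were seen, had a log2 fold change of −1.23 (SE 0.21, edgeR adjusted p = 0.00412). *USP2*, a deubiquitinase gene under clock control in mammals, was at 87.2 and 86.2 against 126 and 120.3 CPM (log2 fold change −0.51, SE 0.10, edgeR adjusted p = 0.00822).

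**Figure D3:**
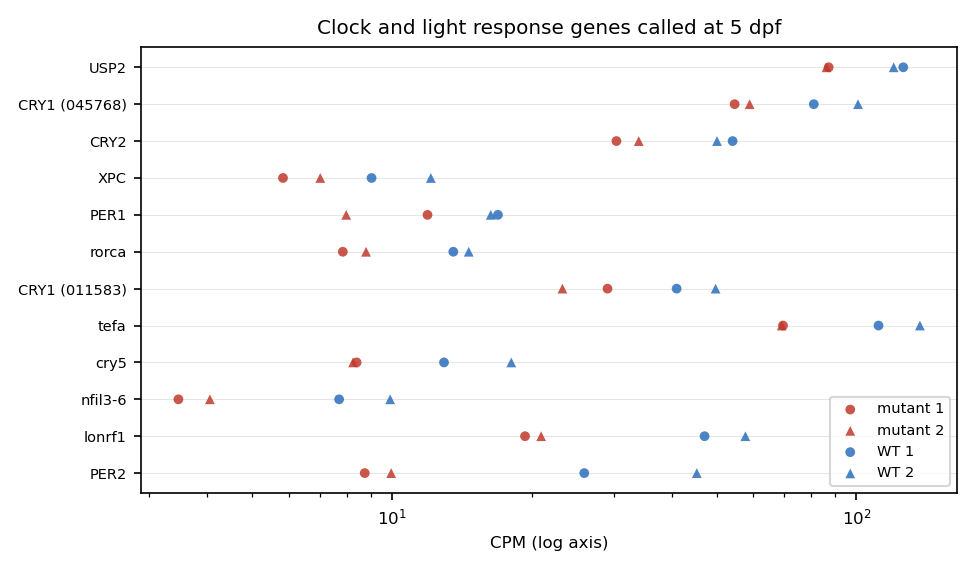
CPM of the 12 clock and light response genes called at 5 dpf, on a log axis, in *rpgrip1l*-/- replicates 1 and 2 (red) and WT replicates 1 and 2 (blue). In every row both red points lie to the left of both blue points, as in every gene called lower.

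Genes of ion uptake fell in the skin ionocyte list, in which 46 were tested, 8 fell and 2 rose, with a median of −0.13 and 6 to 11 called lower when 1 library was left out. *TRPV6* (ENSDARG00000014496), the epithelial calcium channel through which ionocytes take up calcium from the water, was at 26.5 and 25.6 CPM in *rpgrip1l*-/- and 130.3 and 82.3 CPM in WT, 4.08-fold lower (log2 fold change −2.03, SE 0.17, edgeR adjusted p = 1.23e-05). *CYP24A1* (ENSDARG00000103277), the vitamin D 24-hydroxylase that inactivates the hormone and a known vitamin D target, was at 10.25 and 10.02 against 34.6 and 51.0 CPM (log2 fold change −2.08, SE 0.17, edgeR adjusted p = 1.23e-05). A copy of *IGFBP5* (ENSDARG00000039264), an insulin-like growth factor binding protein, was at 7.76 and 7.69 against 18.2 and 14.6 CPM (log2 fold change −1.08, SE 0.16, edgeR adjusted p = 0.00114). The mutant replicates were nearly equal in these 3 genes, so the spread came from the WT pools. The other *IGFBP5* identifier was not called, at 41.7 and 36.5 against 32.6 and 34.1 CPM.

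Other calcium genes did not all move the same way. *STC1*, the gene of stanniocalcin, a hormone that lowers calcium uptake in fish, was at 19.5 and 22.2 CPM in *rpgrip1l*-/- and 13.5 and 13.5 CPM in WT (log2 fold change 0.63, SE 0.13, edgeR adjusted p = 0.0131). That call was lost without *rpgrip1l*-/- replicate 2, at 0.53, and without WT replicate 1, at 0.62.

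Acid and potassium transporters of ionocytes fell in part. A copy of *SLC4A1* (ENSDARG00000024560), an anion exchanger gene, was at 0.831 and 1.17 CPM in *rpgrip1l*-/- and 5.86 and 4.54 CPM in WT (log2 fold change −2.37, SE 0.32, edgeR adjusted p = 0.000604). The other copy (ENSDARG00000012881) rose, from 42.9 and 56.8 to 76.6 and 88.2 CPM (log2 fold change 0.72, SE 0.13, edgeR adjusted p = 0.00466). The name table gives both copies 1 symbol and both stand in the ionocyte and red blood cell lists. Of 7 identifiers under *KCNJ1*, inward rectifier potassium channels, 4 fell, led by ENSDARG00000090635 at 2.702 and 2.68 against 10.31 and 7.11 CPM (log2 fold change −1.69, SE 0.24, edgeR adjusted p = 0.000954). Reads without a unique alignment were left out of the counts, and how alike the *KCNJ1* copies are was not examined. These 4 identifiers of 1 symbol are among the 8 lower genes of the ionocyte list. The share lower in that list was 17.4%, against 2.56% over all genes. A copy of *RHCG* (ENSDARG00000003203), an ammonia transporter named after its values were seen, was at 201 and 150.4 against 297 and 299 CPM (edgeR adjusted p = 0.0025), and the chloride channel gene *clcn2c*, likewise named, rose from 19.6 and 20.0 to 30.5 and 39.2 CPM (edgeR adjusted p = 0.00216). The other *RHCG* identifiers were not called, at log2 fold changes of 0.23 and −0.32.

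In the pronephros, the larval kidney, 6 of 52 genes fell and 1 rose, with 2 lower without WT replicate 1 and 3 without *rpgrip1l*-/- replicate 2, and the median was −0.02. Of the 6, 4 are the *KCNJ1* genes named with the ionocytes. Among 15 carbonic anhydrase genes, enzymes that supply protons and bicarbonate, 2 fell and 3 rose. Of the higher ones 1 was left without *rpgrip1l*-/- replicate 1 and 0 without any other library or in DESeq2, and 3 fell without *rpgrip1l*-/- replicate 1. The lower ones were *ca15c* and the mitochondrial *CA5B*, which was at 24.2 and 27.6 against 37.5 and 44.6 CPM (log2 fold change −0.66, SE 0.12, edgeR adjusted p = 0.00523). Over all 403 solute carriers 7 rose and 23 fell, which is 1.74% and 5.71%, against 1.28% and 2.56% over all genes. The number that rose was 1 without WT replicate 1 and 4 without *rpgrip1l*-/- replicate 2, and 13 fell without *rpgrip1l*-/- replicate 2. *SLC13A2*, a dicarboxylate transporter gene, was at 97.0 and 77.4 against 154 and 190.2 CPM (log2 fold change −0.98, SE 0.13, edgeR adjusted p = 0.000477). *SLC30A10*, which exports manganese, and *SLC52A3*, which takes up riboflavin, had log2 fold changes of −0.94 and −1.15 (edgeR adjusted p = 0.0012 and 0.00368).

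**Figure D4:**
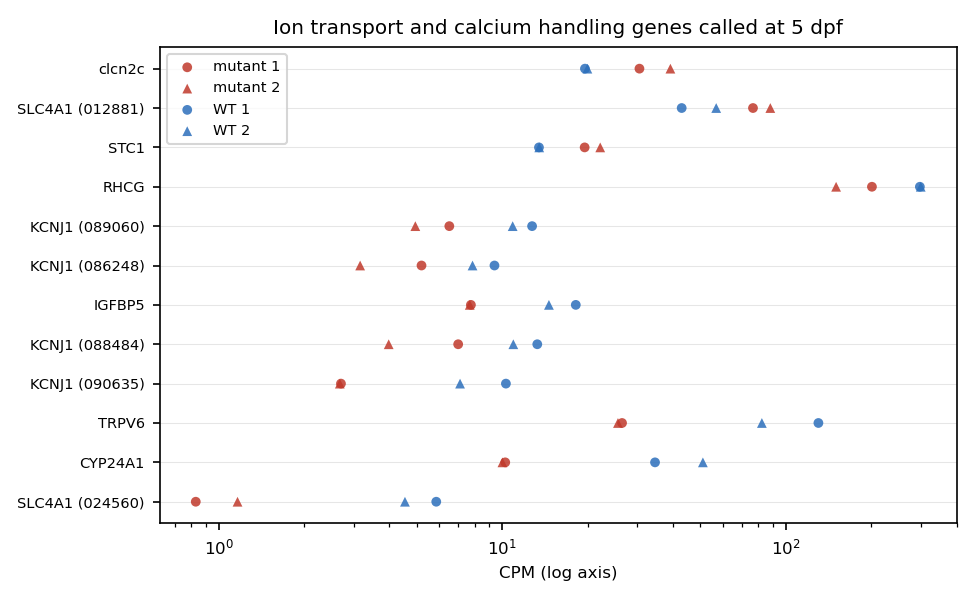
CPM of the called ionocyte genes with *CYP24A1* and *STC1*, on a log axis, in *rpgrip1l*-/- replicates 1 and 2 (red) and WT replicates 1 and 2 (blue), with the last digits of the identifier where genes share a symbol. *TRPV6*, *CYP24A1*, *IGFBP5*, *RHCG*, the *KCNJ1* genes and 1 copy of *SLC4A1* lie lower in the mutants, and *clcn2c*, *STC1* and the other copy of *SLC4A1* lie higher.

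Some genes of plasma proteins made by the liver fell. Of 65 tested, 12 fell and 1 rose, with a median of −0.34, and the share lower was 18.5%, against 2.56% over all genes. Their summed level was 21178 and 15766 CPM in *rpgrip1l*-/- and 23760 and 24191 CPM in WT. The number that fell was 4 without *rpgrip1l*-/- replicate 2 and 37 without *rpgrip1l*-/- replicate 1, so this count rests on which mutant pool is used. The liver marker *fabp10a* was at 402 and 236 CPM in *rpgrip1l*-/- and 377 and 354 CPM in WT, which overlap. The other liver marker, *tfa*, was at 1146 and 709 CPM in *rpgrip1l*-/- and 1164 and 1372 CPM in WT, which do not overlap. The part of these markers in the counts was not tested.

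Some liver genes fell in both mutant pools. *ces3*, a carboxylesterase gene, was at 33.3 and 39.0 CPM in *rpgrip1l*-/- and 67.7 and 71.0 CPM in WT (log2 fold change −0.94, SE 0.11, edgeR adjusted p = 0.0002). *tdo2b*, whose enzyme opens the ring of tryptophan, was at 17.0 and 16.1 against 30.9 and 31.9 CPM (log2 fold change −0.92, SE 0.12, edgeR adjusted p = 0.000375). *ahsg2*, a fetuin gene, was at 5.61 and 3.43 against 12.3 and 10.5 CPM (log2 fold change −1.34, SE 0.22, edgeR adjusted p = 0.00245). For *ces3* and *tdo2b* the mutant replicates were closer to each other than to any WT pool. *hpxa* was the 1 gene of this list that rose.

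Some complement genes fell too. Of 50 complement and acute phase genes 8 fell and 0 rose, with a median of −0.28, and 16 fell without *rpgrip1l*-/- replicate 1, 3 without *rpgrip1l*-/- replicate 2, 5 without WT replicate 1 and 4 without WT replicate 2. *c3a.3*, a gene of the central component, was at 8.80 and 9.88 CPM in *rpgrip1l*-/- and 15.9 and 16.0 CPM in WT (log2 fold change −0.77, SE 0.14, edgeR adjusted p = 0.00698). The lectin gene *mbl2* was at 7.07 and 6.04 against 14.0 and 10.13 CPM, with a call lost without WT replicate 1 at −0.63.

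Among 52 genes of intestinal absorption 11 fell and 0 rose, with a median of −0.34. The share lower was 21.2%, against 2.56% over all genes. Without *rpgrip1l*-/- replicate 1 the number was 18, and without *rpgrip1l*-/- replicate 2 it was 7. *MOGAT2*, whose enzyme rebuilds fat in the enterocyte, was at 37.3 and 28.8 CPM in *rpgrip1l*-/- and 58.3 and 58.9 CPM in WT (log2 fold change −0.83, SE 0.12, edgeR adjusted p = 0.0011). A copy of *MEP1B* (ENSDARG00000037533), a brush border protease gene, was at 2.01 and 2.13 against 6.53 and 6.41 CPM (log2 fold change −1.64, SE 0.24, edgeR adjusted p = 0.00118), and *chia.2*, a chitinase gene, at 524 and 458 against 751 and 848 CPM (log2 fold change −0.70, SE 0.11, edgeR adjusted p = 0.00137). All 3 were apart between the genotypes. The markers of the gut were divided. *cdh17*, a gut and kidney epithelial marker, overlapped at 113 and 104 CPM in mutants and 111 and 106 CPM in WT. Another gut marker, *FABP2*, was called lower, at 654 and 598 against 937 and 877 CPM (log2 fold change −0.53, edgeR adjusted p = 0.00589). That call was lost without *rpgrip1l*-/- replicate 2, at −0.47. Whether gut content had a part in the lower absorption genes was not tested. Digestive enzyme genes, most of them of the exocrine pancreas, fell in 24 of 33 tested, with a median of −1.09 and summed levels of 12311 and 5779 CPM in *rpgrip1l*-/- and 22903 and 17028 CPM in WT.

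Some vitamin A and drug metabolism genes fell. Of 41 retinoid genes 6 fell and 0 rose, 2 fell without WT replicate 1 and 4 without *rpgrip1l*-/- replicate 2, and a copy of *RBP2* (ENSDARG00000070038), the retinol-binding protein of enterocytes, was at 217 and 189.8 CPM in *rpgrip1l*-/- and 352 and 299 CPM in WT (log2 fold change −0.68, SE 0.11, edgeR adjusted p = 0.00272). Of 71 cytochrome P450 genes 8 fell and 0 rose, with 13 lower without *rpgrip1l*-/- replicate 1 and 5 without *rpgrip1l*-/- replicate 2, and *CYP24A1* had the largest fall. *cyp2ad2* and a copy of *CYP4V2* both had log2 fold changes of −0.58, and both calls were lost without *rpgrip1l*-/- replicate 2, at −0.42 and −0.42. In the oxidative stress and xenobiotic list 5 of 51 fell and 0 rose, with 2 lower without *rpgrip1l*-/- replicate 2, 10 without *rpgrip1l*-/- replicate 1 and 8 without WT replicate 1.

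The steepest fall in that list was of *gstp1.1*, a glutathione S-transferase gene, at 27.7 and 21.96 CPM in *rpgrip1l*-/- and 64.2 and 68.9 CPM in WT (log2 fold change −1.42, SE 0.12, edgeR adjusted p = 1.45e-05). *nfe2l2b*, a paralog of the Nrf2 stress factor, was at 15.5 and 11.9 against 26.6 and 22.1 CPM (log2 fold change −0.83, SE 0.15, edgeR adjusted p = 0.00523). *GUSB*, the lysosomal beta-glucuronidase gene, was at 11.4 and 8.92 against 27.8 and 27.9 CPM (log2 fold change −1.46, SE 0.14, edgeR adjusted p = 3.7e-05), though of 81 lysosome and autophagy genes only it and *GLB1* fell and *ctsbb* rose. The *GLB1* call was lost without *rpgrip1l*-/- replicate 2, WT replicate 1 or WT replicate 2, at −0.74, −0.96 and −0.90, and that of *ctsbb* without *rpgrip1l*-/- replicate 2 or WT replicate 1, at 0.45 and 0.50.

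Several genes of glucose metabolism changed. Of 62 glycolysis and gluconeogenesis genes 8 fell and 3 rose, with a median of −0.01, with 5 lower without *rpgrip1l*-/- replicate 2 and 6 higher without WT replicate 2. *PCK1*, the enzyme that commits carbon to glucose synthesis, was at 535 and 441 CPM in *rpgrip1l*-/- and 869.7 and 1058 CPM in WT (log2 fold change −0.98, SE 0.12, edgeR adjusted p = 0.00028). A copy of *G6PC1* (ENSDARG00000013721), which releases glucose from the liver, was at 137 and 111 against 204 and 227 CPM (log2 fold change −0.80, SE 0.11, edgeR adjusted p = 0.00098). *PKLR*, the pyruvate kinase of liver and red cells, was at 295 and 215 against 541 and 578 CPM (log2 fold change −1.14, SE 0.13, edgeR adjusted p = 0.000168). These enzymes belong to both directions of the pathway, and each was lowest in *rpgrip1l*-/- replicate 2.

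*PFKFB4*, which sets the level of a regulator of glycolysis, was at 62.3 and 50.7 CPM in *rpgrip1l*-/- and 97.5 and 109 CPM in WT (log2 fold change −0.87, SE 0.12, edgeR adjusted p = 0.000569). Against these, *FBP2*, a fructose bisphosphatase gene named after its values were seen, rose from 33.004 and 43.4 to 82.9 and 63.8 CPM (log2 fold change 0.94, SE 0.14, edgeR adjusted p = 0.00133). The abundant *GAPDH*, named likewise, had a log2 fold change of −0.56, and its call was lost without *rpgrip1l*-/- replicate 2, at −0.46.

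Some genes of fuel use were also called. Of 54 fatty acid oxidation and ketone genes 5 fell and 0 rose, with a median of −0.15. A copy of *PDK2* (ENSDARG00000059054), a kinase that shuts off pyruvate dehydrogenase, was at 63.5 and 37.2 CPM in *rpgrip1l*-/- and 228 and 179.8 CPM in WT, 4.05-fold lower (log2 fold change −2.02, SE 0.18, edgeR adjusted p = 2.43e-05). *UCP1*, a mitochondrial uncoupling protein gene, was at 303 and 253 against 489 and 499 CPM (log2 fold change −0.83, SE 0.11, edgeR adjusted p = 0.000477). A copy of *FABP1* (ENSDARG00000059227), the fatty acid binding protein of liver and gut, was at 439 and 374 against 702 and 607 CPM (log2 fold change −0.69, SE 0.11, edgeR adjusted p = 0.00243). Among lipid synthesis genes 3 of 39 of the cholesterol list fell and 1 rose, with 1 lower without *rpgrip1l*-/- replicate 2 or WT replicate 1, and 2 of 36 of the fatty acid list fell, with 1 without WT replicate 2. *LPIN1*, in both lists, whose protein is a phosphatidate phosphatase and a coactivator, was at 104 and 89.6 CPM in *rpgrip1l*-/- and 180.2 and 164 CPM in WT (log2 fold change −0.83, SE 0.11, edgeR adjusted p = 0.000493).

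**Figure D5:**
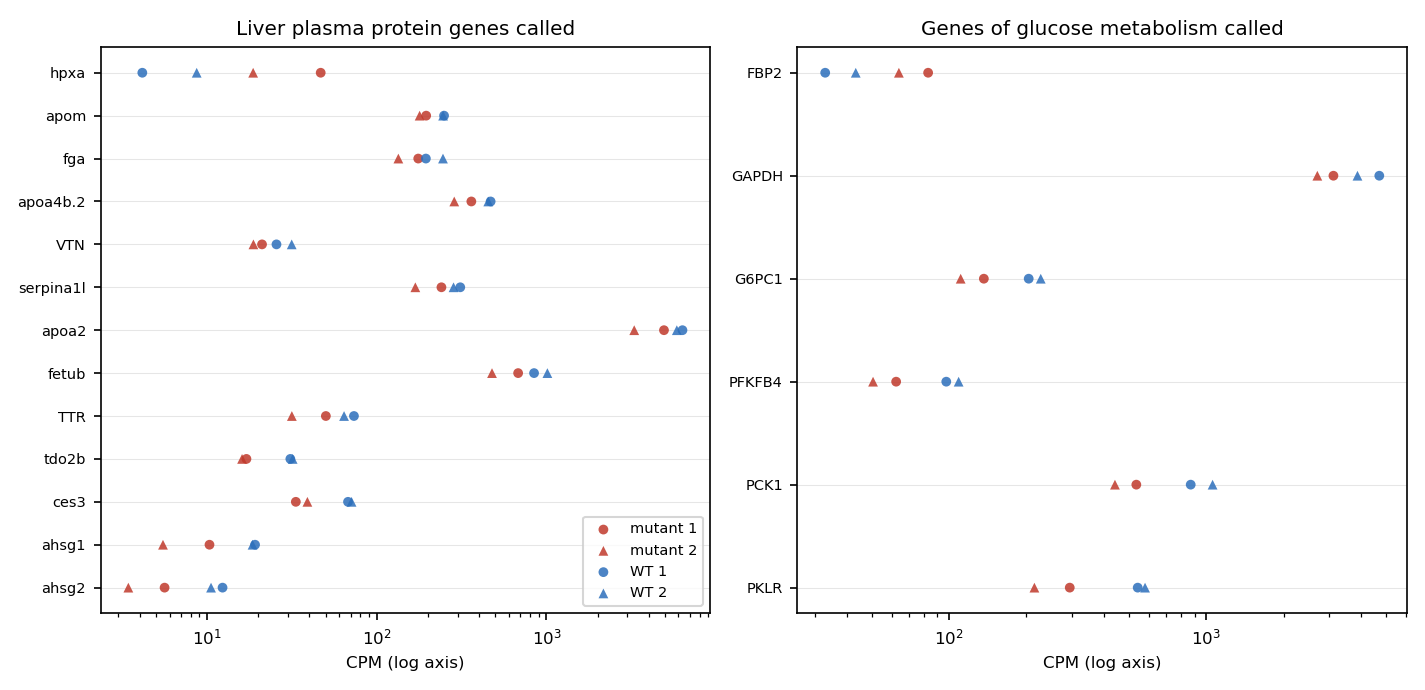
CPM of the called liver plasma protein genes (left) and of *FBP2*, *GAPDH*, *G6PC1*, *PFKFB4*, *PCK1* and *PKLR* (right), on log axes, in *rpgrip1l*-/- replicates 1 and 2 (red circle and triangle) and WT replicates 1 and 2 (blue circle and triangle). Among genes lower in the mutants the red triangle, replicate 2, is the lowest point in most rows.

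A few genes of hormones, of enzymes that act on them and of growth factor binding proteins fell. Among them were *igfbp1b* and the copy of *IGFBP5* described above. In the list of pituitary, hypothalamic, thyroid and other hormone genes 8 of 78 fell and 1 rose, with a median of −0.03, and 6 to 13 were lower when 1 library was left out, most without *rpgrip1l*-/- replicate 1. *DIO1* (ENSDARG00000042112), a deiodinase of thyroid hormone, was at 9.35 and 7.96 CPM in *rpgrip1l*-/- and 31.2 and 26.7 CPM in WT, 3.34-fold lower (log2 fold change −1.74, SE 0.14, edgeR adjusted p = 1.23e-05). *dio3b*, a deiodinase that inactivates the hormone and was named after its values were seen, had a log2 fold change of −0.87 (SE 0.13, edgeR adjusted p = 0.0012). *sst1.2*, a somatostatin gene, was at 13.02 and 9.40 against 22.8 and 23.0 CPM (log2 fold change −1.03, SE 0.15, edgeR adjusted p = 0.00114). Deiodinases and the somatostatin gene were lower in both mutant pools than in both WT pools, as every gene called lower was. *gcga*, the glucagon gene, was at 13.6 and 7.001 against 18.5 and 17.8 CPM (edgeR adjusted p = 0.0414), but its call was lost without *rpgrip1l*-/- replicate 2, at −0.42, and without WT replicate 1, at −0.79. DESeq2 did not call *gcga*.

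Of 34 genes tested that respond to glucocorticoids, the stress steroids, 16 were above 0 on the log2 scale, with a median of −0.03. Called were 6 that fell and 0 that rose, and the share lower was 17.6%, against 2.56% over all genes. Without *rpgrip1l*-/- replicate 2 the number was 3. *PCK1*, which is also in the glycolysis and gluconeogenesis list, led these genes. *KLF9*, a factor induced by glucocorticoid and thyroid hormone, was at 101 and 81.3 CPM in *rpgrip1l*-/- and 147 and 137 CPM in WT (log2 fold change −0.64, SE 0.11, edgeR adjusted p = 0.00458). *sgk2b*, a serum and glucocorticoid regulated kinase gene, was at 18.5 and 19.1 against 27.3 and 28.9 CPM (log2 fold change −0.58, SE 0.12, edgeR adjusted p = 0.0106). *FKBP5*, a chaperone of the receptor, was at 261 and 147 against 349 and 384 CPM (log2 fold change −0.84, SE 0.18, edgeR adjusted p = 0.0153), a call lost without *rpgrip1l*-/- replicate 2 at −0.49. DESeq2 did not call *FKBP5*.

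Amino acid genes fell in 5 of 52 and rose in 1, with 8 lower without *rpgrip1l*-/- replicate 1. A copy of *CTH* (ENSDARG00000032206), which makes cysteine from cystathionine, was at 2.22 and 1.44 CPM in *rpgrip1l*-/- and 10.13 and 7.34 CPM in WT (log2 fold change −2.25, SE 0.27, edgeR adjusted p = 0.000243). The other identifier under this symbol was at 64.4 and 70.28 against 63.7 and 57.9 CPM. A copy of *MAT2A* (ENSDARG00000040334), which makes S-adenosylmethionine, was at 66.3 and 73.4 against 99.3 and 111 CPM (log2 fold change −0.59, SE 0.11, edgeR adjusted p = 0.00495). The other *MAT2A* identifier was not called, at 38.9 and 37.5 against 34.3 and 33.2 CPM.

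Skeletal muscle genes, among the most abundant transcripts of the larva, were lower in summed level. Of 87 tested, 11 fell and 0 rose, with a median of −0.19, and the summed level was 116950 and 118970 CPM in *rpgrip1l*-/- and 160030 and 135490 CPM in WT. The number that fell was 5 without *rpgrip1l*-/- replicate 2, 6 without *rpgrip1l*-/- replicate 1 and 17 without WT replicate 2. The slow muscle marker *smyhc1* was at 343 and 366 CPM in *rpgrip1l*-/- and 270 and 299 CPM in WT, and the fast muscle marker *ckma* was at 6917 and 7496 CPM against 9293 and 7438 CPM, which overlap. Their part in these counts was not tested. A copy of *DES* (ENSDARG00000058656), the gene of the intermediate filament desmin, was at 259 and 248 CPM in *rpgrip1l*-/- and 398 and 381 CPM in WT (log2 fold change −0.62, SE 0.10, edgeR adjusted p = 0.00209). *FBXO32*, a ubiquitin ligase of muscle wasting, was at 4.85 and 7.96 against 25.9 and 14.9 CPM (log2 fold change −1.67, SE 0.25, edgeR adjusted p = 0.00121). Structural genes such as *tpma*, a tropomyosin, and *atp2a1l*, a calcium pump of the sarcoplasmic reticulum, had log2 fold changes of −0.47 and −0.58, calls that were lost without *rpgrip1l*-/- replicate 1 at −0.46 and −0.47, and for *tpma* also without *rpgrip1l*-/- replicate 2 at −0.48. *tnnt2c*, a troponin T gene outside this list, rose, from 13.2 and 14.2 to 23.7 and 23.1 CPM (log2 fold change 0.77, SE 0.12, edgeR adjusted p = 0.00243), and of 29 cardiac genes 0 were called by edgeR or DESeq2, with 3 at an unadjusted p under 0.05.

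Matrix genes were mostly above 0 on the log2 scale. Of 91 connective tissue matrix genes 7 rose and 1 fell, the median was 0.18, and 73 were above 0. The number that rose was 2 without WT replicate 1, 3 without *rpgrip1l*-/- replicate 2 and 13 without *rpgrip1l*-/- replicate 1. *CCN1*, a matrix protein gene that responds to mechanical and growth signals, was at 69.7 and 86.7 CPM in *rpgrip1l*-/- and 43.3 and 45.02 CPM in WT (log2 fold change 0.82, SE 0.12, edgeR adjusted p = 0.000818). The laminin gene *LAMA5* had a log2 fold change of 0.48, a call lost without WT replicate 1 at 0.40. Outside the list, a copy of *SERPINH1* (ENSDARG00000019949), the collagen chaperone, was at 63.0 and 80.2 against 32.6 and 22.8 CPM (log2 fold change 1.37, SE 0.15, edgeR adjusted p = 0.000136), and a copy of *ITGB1* (ENSDARG00000053232), an integrin that binds matrix, at 49.7 and 47.8 against 34.7 and 34.4 CPM (log2 fold change 0.50, SE 0.10, edgeR adjusted p = 0.0113). The other *SERPINH1* identifier was not called, at 61.6 and 65.9 against 64.0 and 54.0 CPM, nor were the other *ITGB1* identifiers.

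Cartilage genes split. Of 50 cartilage and bone genes 2 rose and 3 fell, with 1 higher without *rpgrip1l*-/- replicate 2 or WT replicate 1. One identifier under *MATN3* (ENSDARG00000069245), a matrilin of cartilage matrix, was at 38.7 and 32.0 CPM in *rpgrip1l*-/- and 66.6 and 82.9 CPM in WT (log2 fold change −1.08, SE 0.13, edgeR adjusted p = 0.000208), while the other (ENSDARG00000069265) was at 21.8 and 26.5 against 14.1 and 17.7 CPM (log2 fold change 0.60, SE 0.14, edgeR adjusted p = 0.0286). The second call was lost without *rpgrip1l*-/- replicate 2, at 0.46, and without WT replicate 1, at 0.45. *col9a1b*, a collagen IX gene, was at 61.5 and 66.3 against 87.2 and 121 CPM (log2 fold change −0.71, SE 0.13, edgeR adjusted p = 0.00713).

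In the skin 8 of 70 epidermis and mucous cell genes fell and 3 rose, with a median of 0.04, with 3 lower without WT replicate 1 and 5 without *rpgrip1l*-/- replicate 2. *krt92*, a keratin gene, was at 549 and 536 CPM in *rpgrip1l*-/- and 796 and 816 CPM in WT (log2 fold change −0.57, SE 0.09, edgeR adjusted p = 0.00273). *anxa1d*, an annexin gene, was at 16.6 and 18.7 against 32.1 and 30.5 CPM (log2 fold change −0.82, SE 0.12, edgeR adjusted p = 0.001), and *dsc2l*, a desmocollin of desmosomes, at 43.4 and 41.5 against 58.6 and 68.2 CPM (log2 fold change −0.58, SE 0.11, edgeR adjusted p = 0.00665), each a member of this list. Outside it, *s100a11*, a calcium-binding protein gene, was at 73.6 and 59.9 against 236 and 132 CPM (log2 fold change −1.46, SE 0.19, edgeR adjusted p = 0.00053), and the tight junction gene *cldn7a* rose, from 31.1 and 31.6 to 44.8 and 55.5 CPM (log2 fold change 0.68, SE 0.12, edgeR adjusted p = 0.00381). *muc5.1*, a secreted mucin gene, was at 11.7 and 14.9 against 4.58 and 7.92 CPM, and its call was lost without WT replicate 1 at 0.75.

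Red blood cell genes rose in 6 of 38 and fell in 2, which is 15.8% and 5.26%, against 1.28% and 2.56% over all genes. The number that rose was 1 without WT replicate 1, 2 without *rpgrip1l*-/- replicate 2 and 4 without WT replicate 2. *alas2*, the first enzyme of heme synthesis in red cells, was at 32.1 and 45.6 CPM in *rpgrip1l*-/- and 18.1 and 26.3 CPM in WT (log2 fold change 0.81, SE 0.17, edgeR adjusted p = 0.0147), a call lost without WT replicate 1 at 0.56. *KLF3*, a repressor of the Krüppel-like family, was at 46.2 and 35.0 against 62.1 and 64.4 CPM (log2 fold change −0.64, SE 0.12, edgeR adjusted p = 0.00806), a call lost without *rpgrip1l*-/- replicate 2 at −0.45.

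Neural and glial genes rose in small numbers. Of 96 neuronal and synaptic genes 6 rose and 1 fell, with a median of 0.06, and 2 rose without WT replicate 1. *sv2ba*, a synaptic vesicle protein gene, was at 30.6 and 28.3 CPM in *rpgrip1l*-/- and 18.7 and 18.3 CPM in WT (log2 fold change 0.67, SE 0.12, edgeR adjusted p = 0.0038). *CHAT*, which makes acetylcholine, was the lower gene, at a log2 fold change of −0.86, a call lost without *rpgrip1l*-/- replicate 2 at −0.76 and without WT replicate 2 at −0.72. Of 92 phototransduction genes of the retina 14 rose and 3 fell.

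Of 44 glia and myelin genes 3 rose and 1 fell, with a median of 0.21, with 0 higher without *rpgrip1l*-/- replicate 2 and 1 without WT replicate 1. The lower one was an identifier under *VIM* (ENSDARG00000044501), a vimentin gene, at 1.73 and 1.51 CPM in *rpgrip1l*-/- and 4.15 and 4.83 CPM in WT (log2 fold change −1.47, SE 0.29, edgeR adjusted p = 0.00866), while the other identifier under this symbol was at 143 and 154 against 151 and 167 CPM. A copy of *FABP7* (ENSDARG00000007697), a marker of radial glia, was at 293 and 351 against 217 and 221 CPM (log2 fold change 0.55, SE 0.11, edgeR adjusted p = 0.00859), a call lost without *rpgrip1l*-/- replicate 2 at 0.42. The other *FABP7* identifier was not called, at 11.4 and 13.7 against 16.3 and 12.7 CPM.

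Signalling and growth lists gave few calls. Of 76 Wnt pathway genes 3 rose and 0 fell, with 1 higher when WT replicate 1 or WT replicate 2 was left out, and *WNT7A* was at 21.1 and 21.1 CPM in *rpgrip1l*-/- and 14.5 and 12.5 CPM in WT (log2 fold change 0.65, SE 0.13, edgeR adjusted p = 0.0108), a call lost without WT replicate 2 at 0.55. Of 100 Notch, Bmp, Tgfb and Fgf pathway genes 1 rose and 1 fell, the higher call being lost without WT replicate 1, WT replicate 2 or *rpgrip1l*-/- replicate 2. In this list 3 fell without *rpgrip1l*-/- replicate 1 and 2 without either WT replicate. Among 83 replication and mitosis genes 3 rose and 1 fell, while the median was 0.26 and 76 were above 0. The number that rose was 0 without WT replicate 1 or *rpgrip1l*-/- replicate 2, 1 without WT replicate 2 and 10 without *rpgrip1l*-/- replicate 1. The lower one was an identifier under *RRM2* (ENSDARG00000020711), a ribonucleotide reductase gene, at 0.139 and 0.824 against 4.51 and 6.64 CPM (log2 fold change −3.51, SE 0.45, edgeR adjusted p = 0.000418). Its value was −2.75 without *rpgrip1l*-/- replicate 1 and −5.26 without *rpgrip1l*-/- replicate 2, while the other identifier of that symbol was at 64.8 and 70.6 against 61.2 and 51.1 CPM.

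Other lists held few calls, with medians between −0.10 and 0.06. Of 53 heat shock and chaperone genes 2 rose and 1 fell, with 1 higher without *rpgrip1l*-/- replicate 1, 3 higher without *rpgrip1l*-/- replicate 2 or WT replicate 2, and 0 lower without *rpgrip1l*-/- replicate 2 or WT replicate 2. Of 46 unfolded protein response genes 2 rose and 1 fell, with 2 lower without *rpgrip1l*-/- replicate 1. Of 39 hypoxia genes 1 rose and 4 fell. Without *rpgrip1l*-/- replicate 1 these were 3 and 2, and the higher call was lost without each of the other libraries. Hair cell and pigment cell genes each had 2 lower, of 49 and 63. These numbers were 4 and 3 without *rpgrip1l*-/- replicate 1, and 1 and 1 without *rpgrip1l*-/- replicate 2, and for pigment cell genes 1 without WT replicate 1. Among 53 endothelial genes 1 rose, which was *klf2a*, with 2 higher without *rpgrip1l*-/- replicate 1. Among 20 lymphoid genes 1 fell, *RAG1*, a call lost without *rpgrip1l*-/- replicate 1, WT replicate 1 or WT replicate 2, at −0.70, −0.89 and −0.85. DESeq2 and the fit of all 10 libraries did not call *RAG1*. Of 39 lens and 16 olfactory and taste genes 0 were called by edgeR or DESeq2, with 4 and 1 at an unadjusted p under 0.05.

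Genes of the cilium lists were not called. Of 26 transition zone genes, 37 intraflagellar transport and BBSome genes, 81 motile cilium genes, 30 Hedgehog pathway genes and 15 genes of the urotensin and Reissner fiber axis, 0 were called in either direction by edgeR or DESeq2. Of the 188 different genes in these lists 25 had an unadjusted p under 0.05 in edgeR, against 3400 of 20071 over all genes. Among the 15 urotensin and Reissner fiber genes 4 did. The log2 fold changes of these 15 ran from −1.26 to 1.04, and 3 more matched genes were too low to be tested. The median log2 fold changes of the lists, in the order given, were 0.12, 0.07, 0.15, 0.09 and −0.08. Over these lists the summed levels overlapped between the genotypes, for example 129 and 140 CPM in *rpgrip1l*-/- and 125 and 130 CPM in WT for the transition zone. The most abundant transition zone gene, a copy of *TMEM237* (ENSDARG00000041735), was at 23.6 and 21.4 CPM in *rpgrip1l*-/- and 24.9 and 26.6 CPM in WT (log2 fold change −0.19, SE 0.12, edgeR adjusted p = 0.435). In the transport list *ARL3* (ENSDARG00000071409), a small GTPase that releases cargo in the cilium, was at 44.2 and 45.3 against 63.8 and 54.0 CPM (log2 fold change −0.40, SE 0.11, edgeR adjusted p = 0.0577), the genotypes being apart but the test not passed, while without WT replicate 2 it was called at −0.51. A p above the threshold does not show that these genes were equal.

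Genes of the mitochondrial genome were examined beside the nuclear genes of the same machinery. All 13 of its protein-coding genes were above 0, with a median log2 fold change of 0.55 and a range of 0.39 to 0.93, but 1 was called. The number called was 13 without *rpgrip1l*-/- replicate 1, 2 without WT replicate 2 and 0 without *rpgrip1l*-/- replicate 2 or WT replicate 1. Their summed level was 4120 and 8875 CPM in *rpgrip1l*-/- and 3832 and 4845 CPM in WT, so *rpgrip1l*-/- replicate 2 was high and replicate 1 lay between the WT pools. The called gene was *MT-CO2*, a subunit of cytochrome oxidase, at 1532 and 2364 CPM in *rpgrip1l*-/- and 1094 and 1284 CPM in WT (log2 fold change 0.71, SE 0.15, edgeR adjusted p = 0.0156), a call lost without *rpgrip1l*-/- replicate 2 at 0.37 and without WT replicate 1 at 0.60. Of 114 nuclear genes of the respiratory chain 1 rose and 3 fell, with a median of −0.11. The number that fell was 0 without WT replicate 1, 1 without *rpgrip1l*-/- replicate 2, 2 without *rpgrip1l*-/- replicate 1 and 7 without WT replicate 2. The one that rose, a copy of *COX5B* (ENSDARG00000068738), was at 30.3 and 30.0 against 16.8 and 17.1 CPM (log2 fold change 0.83, SE 0.11, edgeR adjusted p = 0.000753). The most abundant *COX5B* identifier (ENSDARG00000015978) was not called, at 436 and 414 against 499 and 490 CPM. Nor was ENSDARG00000113254, at 10.4 and 9.61 against 8.66 and 8.74 CPM. Cytosolic ribosomal protein genes had 2 lower of 82, with 0 lower without either *rpgrip1l*-/- replicate, 3 without WT replicate 1 and 15 without WT replicate 2. Of proteasome genes 0 of 52 were called by edgeR or DESeq2, with 3 at an unadjusted p under 0.05.

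The difference between the genotypes at 5 dpf was set against that at 2 dpf in a fit of all 10 libraries. Over 21016 genes 23.4% differed between the ages in this respect, and of the 24 genes that rose or fell most at 5 dpf 14 did. These 24 were chosen for their size at 5 dpf, which enters this difference, so the shares cannot be compared. The difference at 5 dpf minus that at 2 dpf was −3.32 on the log2 scale for *PER2* (edgeR adjusted p = 5.53e-10), for *TRPV6* −1.28 (edgeR adjusted p = 0.000168) and for *irg1l* 2.80 (edgeR adjusted p = 3.22e-09). Calls were more common at 2 dpf. Of 18724 genes tested at both ages, mutants with CDT had 3795 higher and 3932 lower than WT, and those without 3620 and 3908. At 5 dpf 229 and 467 of these genes were called higher and lower. At 2 dpf *PER2* was higher than in WT, at 1.41 in mutants with CDT and 1.52 in those without. In the same groups *irg1l* was lower, at −0.81 and −0.59. *TRPV6* was lower at 2 dpf too, at −0.61 and −0.74. *AJUBA*, *DRD3*, *igfbp1b*, *LIPC* and *CYP24A1* were among the 10 without such a call, these 5 with edgeR adjusted p-values between 0.11 and 0.82. *LIPC* had at most 0.094 CPM at 2 dpf and an SE of 4.80, so it could not be compared between the ages.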

How the data were processed

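RNA of pools of 30 to 35 whole zebrafish was measured by poly(A) RNA sequencing. Per the submitters' processing notes the authors used Trim Galore 0.4.4 for trimming, STAR 2.7.3a for alignment to GRCz11, and HTSeq 0.12.3 for counting. The deposited values are raw counts per gene identifier, not normalized. Counters of reads on no gene were left out, and 43.8% to 44.3% of all counted reads lay on genes.

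The genotypes at 5 dpf were compared with edgeR 4.0.16 in R 4.3.3, using the 4 libraries of that age, TMM scaling, filterByExpr and the quasi-likelihood test with Benjamini-Hochberg adjustment over all genes tested. A gene was called at an adjusted p under 0.05. SE is the log2 fold change over the square root of F. CPM were computed from the counts with TMM-scaled library sizes. The difference between ages was an interaction term over all 10 libraries. Intervals of count ratios are exact at 95% and cover counting error only. Replicates differed by more than sampling noise, with chi-square per degree of freedom of 7.74 and 7.57.

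The genes named are the 12 most raised and 12 most lowered by fold among called genes with a unique symbol, no overlap between genotypes and a mean of at least 1 CPM, outside the retina and digestive lists, then up to 4 called genes of each list or family by adjusted p, up to 2 abundant genes of lists without a call, and a few named after their values were seen. The gene lists and the comparison were chosen with earlier results of these data known. Of 2822 listed names 2600 matched a gene. Names came from a table that pairs 28988 of 32057 identifiers, in which 1688 symbols are shared by 5966 identifiers, and a RefSeq table of GRCz12tu gave only which genes neighbour each other. No genome or annotation of GRCz11 was used here, so no coordinates or sequences are given. Alternatives were DESeq2 1.42.0, other scalings and filters, a replicate block, all 10 libraries and leaving out each library. A few single-gene results are not reported here.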

Additional observations from a re-analysis of the deposited data

Results flagged for a closer look

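For 14 of the 24 genes that rose or fell most at 5 dpf, the genotype difference at 5 dpf differed from that at 2 dpf by edgeR's interaction test. Among genes higher in *rpgrip1l*-/- at 5 dpf, the 5 dpf difference minus the 2 dpf difference was 1.73 on the log2 scale for *nppcl2*, 2.60 for *hpxa*, 2.64 for *FOSL1*, 1.94 for *KLF4*, 4.06 for *CH25H* and 2.41 for *tnfb*. It was 2.80 for *irg1l*, 3.08 for *FOSB*, 1.79 for *JUND* and 1.73 for *ncoa7a*. Among genes lower at 5 dpf it was −3.76 for *ca15c*, −2.68 for *pcdh1g30*, −1.28 for *TRPV6* and −3.32 for *PER2*. *CH25H* and *FOSB* had at most 0.377 and 0.469 CPM in any 2 dpf library, and their SEs were 1.26 and 0.96. For *ca15c*, at 0.118 to 0.461 CPM in the 2 dpf mutants, the SE was 1.15. The sizes for these 3 genes therefore rest on few reads. The 24 genes were chosen for their size at 5 dpf, which enters the difference between the ages. Over all genes tested 23.4% differed between the ages, a share that theirs cannot be compared with. At 2 dpf *PER2* was higher and *irg1l* lower than in WT in both mutant groups, the reverse of 5 dpf. At that age 3795 and 3932 of 18724 genes were higher and lower in mutants with CDT, and 3620 and 3908 in those without.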

How the results depend on the processing

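Against 257 genes higher and 514 lower, DESeq2 called 135 and 283, the fit of all 10 libraries 458 and 773, and a minimum of a 2-fold difference left 74 and 152. Leaving out 1 library gave 149 to 373 higher and 329 to 755 lower. Other scalings and filters gave 219 to 272 higher and 466 to 499 lower. A fit with the replicate number as a block called 442 higher and 770 lower. The labels give replicate numbers but do not say whether these pair the samples. The deviations of same-numbered samples correlated at 0.0376, and with only 2 pairs this cannot decide it. Called in every setting were 83 higher and 147 lower genes. Of 230 called genes named by rule or added, 99 kept their call in every alternative, 151 in DESeq2, and none changed direction, 12 having no value with at least 10 counts in every library. DESeq2 did not call *hpxa*, *FOS* or *FBXO32*, which all fits without a library did. *RPGRIP1L*, not called, changed sign without *rpgrip1l*-/- replicate 1, at 0.36, and was at −0.74 without *rpgrip1l*-/- replicate 2. The cause of these changes was not tested. With 13979426 to 17536165 counts per library, genes near 1 CPM rest on few reads.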
